A study of Rattus norvegicus with 9 samples.

Results

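The genes of the creatine kinase and adenylate kinase energy shuttle were followed in the left ventricle of rats 28 days after myocardial infarction. They were chosen by gene symbol as 9 genes: Ckm, Ckmt2, Ckmt1, Ckb, Slc6a8, Gatm, Gamt, Ak1 and Ak4. Of these, 8 had a row under their symbol among the 35843 genes of the series, each with 1 row, and Ak1 was not analysed here. Their identifiers were ENSRNOG00000016837 (Ckm), ENSRNOG00000055450 (Ckmt2), ENSRNOG00000014573 (Ckmt1), ENSRNOG00000010872 (Ckb), ENSRNOG00000057620 (Slc6a8), ENSRNOG00000000168 (Gatm), ENSRNOG00000024577 (Gamt) and ENSRNOG00000045738 (Ak4). Expression was measured by RNA-seq of poly-A selected RNA from 3 samples in each of 3 groups. The labels call these biological replicates, but each title names a pair of parts for a single column of values, and what the parts are is not stated, so calling each column a rat is an assumption. All rats were adult male SD (Sprague-Dawley) rats. Group Sham had the operation without ligation, and group MI had the left anterior descending coronary artery tied. Both of these groups received saline by daily gavage. Group MI + DAPA (1st d), written as group DAPA from here on, had the same ligation and received dapagliflozin (DAPA), an inhibitor of the renal glucose transporter SGLT2, at 1 mg/kg by daily gavage from day 1. The study states that its molecular work mainly used the border of the infarct, with the scar cut away and the matching part of the heart taken in group Sham, whereas for the RNA-seq itself it speaks of left ventricles and of infarct myocardium. Which part of the ventricle was sequenced is therefore not certain.

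Creatine kinase moves the high-energy phosphate of ATP onto creatine and back, and in the heart it links the mitochondria, where ATP is made, with the myofibrils and ion pumps, where it is used. Ckmt2 encodes the sarcomeric mitochondrial enzyme, which sits between the mitochondrial membranes, and Ckmt1 its ubiquitous counterpart. Ckm and Ckb encode the muscle-type and brain-type cytosolic subunits, and a higher share of the brain-type subunit is known from the fetal heart. Slc6a8 carries creatine into the cell, since heart muscle takes up most of its creatine from blood, and Gatm and Gamt encode the enzymes of the first and last step of creatine synthesis. Adenylate kinases exchange phosphate between adenine nucleotides; Ak1 is the cytosolic form and Ak4 a form of the mitochondrial matrix.

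The sequence just upstream of the annotated start is shown for Ckm, Ckmt2 and Ckb, because these were the most abundant members and their levels followed different patterns across the groups. The bases were taken from the RefSeq promoter table for the GRCr8 assembly, which held a window for 8 of the 9 genes, and the 250 bases before the start are given 5′ to 3′ on the strand of the gene. Capitals mark E-boxes (CANNTG, the core bound by myogenic bHLH factors) in Ckm and Ckmt2 and a MEF2 site, the element of the MEF2 family of muscle transcription factors, in Ckb. The windows are Ckm (chr1:88189211-88189460, plus strand), Ckmt2 (chr2:24845512-24845761, minus strand) and Ckb (chr6:136553465-136553714, minus strand).
Ckm: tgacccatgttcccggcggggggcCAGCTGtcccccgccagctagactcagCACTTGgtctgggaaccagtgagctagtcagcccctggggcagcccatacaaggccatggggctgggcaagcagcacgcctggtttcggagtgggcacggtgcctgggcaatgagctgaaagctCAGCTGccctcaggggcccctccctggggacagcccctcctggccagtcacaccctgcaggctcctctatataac
Ckmt2: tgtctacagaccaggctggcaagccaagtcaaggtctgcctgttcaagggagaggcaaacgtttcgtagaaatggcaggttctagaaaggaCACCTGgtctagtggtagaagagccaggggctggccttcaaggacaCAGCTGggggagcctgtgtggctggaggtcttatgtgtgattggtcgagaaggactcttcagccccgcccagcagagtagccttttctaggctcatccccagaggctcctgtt
Ckb: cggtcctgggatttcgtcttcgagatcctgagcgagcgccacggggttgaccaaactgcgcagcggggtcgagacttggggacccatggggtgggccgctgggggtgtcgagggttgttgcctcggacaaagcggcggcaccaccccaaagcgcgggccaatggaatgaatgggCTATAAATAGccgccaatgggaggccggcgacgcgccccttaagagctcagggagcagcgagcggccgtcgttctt
The Ckm window held 3 E-boxes, beginning 226, 199 and 75 bases before the start, and the Ckmt2 window 2, beginning 159 and 113 bases before it. The Ckb window held no E-box and 1 MEF2 site, beginning 76 bases before the start. On either strand, an E-box occurred in 65.5% of the 33469 rat windows of this length and a MEF2 site in 2.96%. Neither AAGGTCA, found in 3.99% of windows, nor a CArG box, the element of serum response factor, found in 1.5%, occurred in any of the 8 windows. No match overlapped another. These matches describe the letters only.

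Expression was given as FPKM, fragments per kilobase of transcript, scaled to a size set for each library. This allows levels of different genes to be compared per length. The reads behind the values could be recovered and came to 13597239 to 17210909 per rat. Genes of the mitochondrial genome took 61.1% to 66.9% of them in the Sham rats. Their share was 7.07% to 19.1% in the MI rats and 17.5% to 32.0% in the DAPA rats. Nuclear genes were thus measured from the fewest reads in group Sham (5702454 to 6570698, against at least 11440726 in the other rats). The library size behind the FPKM was not the total of recovered reads. Ckm was at 96.5 FPKM from 1453 reads in Sham replicate 1 and at 108 FPKM from 3009 reads in MI replicate 1. The totals of these rats were 16899773 and 15565791 reads. The heart muscle label was met: all 13 cardiomyocyte markers with a row, of 15 listed, were at 1 FPKM or more in every rat, with the highest means over all 9 rats for Mb, Tnnt2 and Myl3, although Tnni3 was the highest of these 4 in each Sham rat. Their summed FPKM was 9331 to 13301 among the Sham rats, 3172 to 16223 among the MI rats and 12629 to 26433 among the DAPA rats. MI replicate 2 was the lowest of the 9 rats in 12 of the 13 and stood apart in this way. The 8 fibroblast markers summed to 436 to 713, 3770 to 7367 and 2321 to 4060 FPKM in the same order of groups, and the 7 macrophage markers to 62.6 to 152, 560.4 to 1107 and 307 to 654. The 4 atrial myocyte markers summed to 74.1 to 205, 636 to 7233 and 4215 to 8792 FPKM. The 5 skeletal muscle markers with a row stayed between 16.8 and 29.9 FPKM in all rats. In bulk tissue, fewer cells of a type and less RNA per cell cannot be told apart, and the part of cell composition in the differences was not tested. The comparison with cardiomyocyte markers given further on cannot test it. Of those 13 markers, 4 were higher and 9 lower in group MI than in group Sham.

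Within group Sham, Ckmt2 was the most abundant member. Its FPKM was 533 ± 128 (SD, n = 3), followed by Ckb at 158 ± 50.7 and Ckm at 130 ± 28.9. The lowest Ckmt2 value, 385 FPKM, lay above the highest of Ckb, 209 FPKM, whereas the ranges of Ckb and Ckm overlapped. Gamt (34.5 ± 4.84), Gatm (20.9 ± 4.23) and Slc6a8 (17.9 ± 1.10) followed at lower levels, with overlapping ranges for the last pair. Ak4 was at 1.17 ± 1.33 FPKM and Ckmt1 at 0.0379 ± 0.0657. In group MI the order at the top was Ckb (157 ± 27.4), Ckm (120 ± 84.7) and Ckmt2 (103 ± 60.4), and in group DAPA it was Ckm (262 ± 103), Ckmt2 (248 ± 89.5) and Ckb (193 ± 4.27). In both infarcted groups the ranges of neighbours in this order overlapped.

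**Figure D1:**
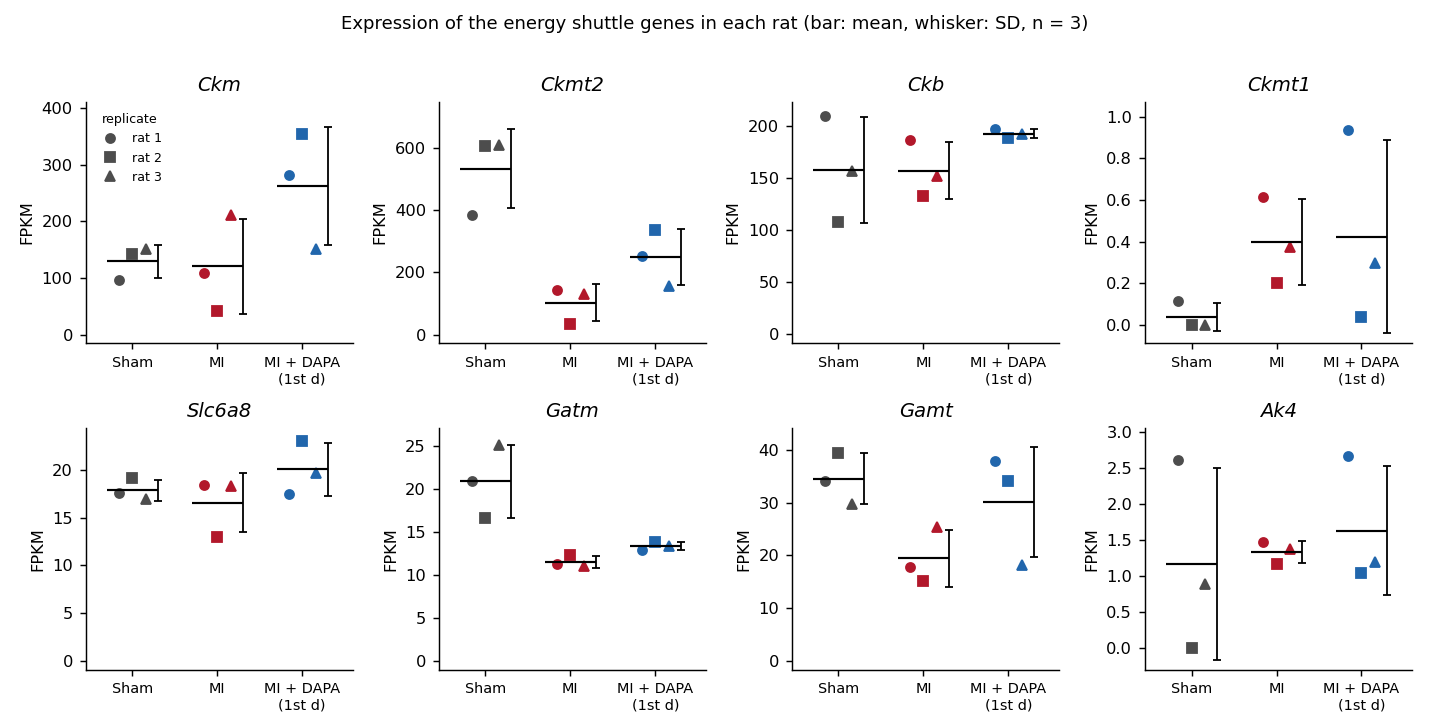
FPKM (vertical axis, linear) of the 8 genes in each rat of group Sham, MI and DAPA, with a horizontal bar for the mean and a whisker for the SD of 3 rats. In the deposited values Ckmt2 lay between 385 and 609 in group Sham and between 33.3 and 143 in group MI, while Ckb lay between 108 and 209 in all 9 rats; the scaling of the libraries moves such differences, as the text states.

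Ckmt2 was the member that differed most between group MI and group Sham. Its FPKM was 385, 604 and 609 in the Sham rats and 143, 33.3 and 132 in the MI rats. All 3 MI rats lay below all 3 Sham rats, MI replicate 2 being the lowest. On the log2(FPKM + 1) scale, fitted with limma across the 13485 genes with at least 1 FPKM in at least 3 of the 6 rats, Ckmt2 fell by 2.59 ± 0.54 (SE), or 6.01-fold, with a 95% interval from -3.87 to -1.31 (limma p = 0.00194, Benjamini-Hochberg adjusted p = 0.0103, exact permutation p = 0.1). Ckmt2 was thus called by the rule of the study, which asks for an unadjusted p under 0.05 together with a log2 fold change beyond 1 in either direction. It was the single called member of 7 tested, where the rule called 22.4% of all genes tested. Its log2 fold change lay between -2.95 and -1.92 when each rat was left out in turn, the latter without MI replicate 2, and it was called each time.

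The scaling between libraries bears on every such value. With each library set to its total of recovered reads, mitochondrial genome included, the median log2 fold change of all genes tested in group MI vs. group Sham moved from -0.01 to 0.92, and when they were rescaled to the same sum of FPKM it moved to 1.29. In group DAPA vs. group MI the median moved from -0.02 to -0.21 and -0.32, and in group DAPA vs. group Sham from 0.01 to 0.75 and 0.997. Relative to the median of all genes, the log2 fold change of Ckmt2 in group MI was -2.58 in the deposited values, -2.40 with all recovered reads and -2.33 with the FPKM sum. Without that reference its log2 fold change was -1.48 with all recovered reads and -1.04 with the FPKM sum, the latter no longer called.

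The enzymes of creatine synthesis were also lower in group MI. Gatm, the amidinotransferase of the first step, measured 20.9, 16.6 and 25.1 FPKM in the Sham rats and 11.3, 12.3 and 10.9998 in the MI rats. Gamt, the methyltransferase of the last step, measured 34.2, 39.5 and 29.8 FPKM in the Sham rats and 17.8, 15.1 and 25.4 in the MI rats. For both genes the groups did not overlap. The log2 change was -0.79 ± 0.18 (SE) for Gatm, 1.73-fold lower (limma, adjusted p = 0.0129), and turned to 0.26 with all recovered reads. For Gamt it was -0.82 ± 0.22, 1.76-fold lower (limma, adjusted p = 0.0227), and turned to 0.25 with all recovered reads. Relative to the median of all genes both kept their sign, at -0.66 and -0.67 with all recovered reads. Ckmt2, Gatm and Gamt were the 3 of 7 members with an adjusted p under 0.05, a share to be read against 39% of all genes tested, and neither Gatm nor Gamt reached the fold-change threshold. Without MI replicate 3 Gamt was called, at -1.02.

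Ckm, the muscle-type cytosolic isoform, spread widely. It measured 96.5, 142 and 150.3 FPKM in the Sham rats and 108, 42.2 and 210.3 in the MI rats. The MI rats lay on both sides of all Sham rats, and the difference of -0.36 ± 0.53 (SE) on the log2 scale did not pass the test (limma adjusted p = 0.622, 95% interval -1.61 to 0.89). Its sign turned without MI replicate 2 (0.24), with all recovered reads (0.74) and with the FPKM sum (1.18). Ckb, the brain-type isoform, measured 209, 108 and 157 FPKM in the Sham rats and 187, 133 and 152 in the MI rats. The ranges overlapped almost wholly, and the log2 difference was 0.03 ± 0.26 (SE), with a 95% interval from -0.59 to 0.65 (limma adjusted p = 0.942). With all recovered reads Ckb was called higher, at 1.13, of which 0.21 remained relative to the median of all genes.

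Slc6a8, the creatine transporter, measured 17.6, 19.1 and 17.0 FPKM in the Sham rats and 18.4, 12.9998 and 18.3 in the MI rats. The groups overlapped, MI replicate 2 being the lowest, and the log2 difference was -0.12 ± 0.17 (SE) with a 95% interval from -0.52 to 0.29 (limma adjusted p = 0.614), turning to 0.93 with all recovered reads. Ak4 was near the lower limit of measurement, with 28, 0 and 8 reads in the Sham rats and 29, 21 and 27 in the MI rats. In FPKM this was 2.61, 0 and 0.886 against 1.46, 1.16 and 1.37, with a log2 difference of 0.30 ± 0.44 (limma adjusted p = 0.626). Ckmt1 had 2, 0 and 0 reads in the Sham rats and 20, 6 and 12 in the MI rats, or at most 0.616 FPKM, and no rat reached the 1 FPKM needed for a test. A library of this depth leaves 3 reads as the smallest number set apart from 0, which covers counting error only, and no fold is given for Ckmt1.

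In group DAPA vs. group MI, Ckmt2 and Ckm had the largest differences among the members. Ckmt2 measured 251, 336 and 157 FPKM in the DAPA rats against 143, 33.3 and 132 in the MI rats. The groups did not overlap, the lowest DAPA rat being replicate 3 and the highest MI rat replicate 1. The log2 difference of Ckmt2 was 1.45 ± 0.58 (SE), 2.74-fold, with a 95% interval from 0.067 to 2.84 (limma p = 0.0423, exact permutation p = 0.1). Ckmt2 was the 1 member called of 7 tested, against 2.06% of the 13251 genes tested in this comparison. Its adjusted p was 0.558, and 0% of all genes had an adjusted p under 0.05 by limma, where 8.49% had an unadjusted p under 0.05, Ckmt2 alone among the members. Without MI replicate 2 the difference was 0.78 and not called, and it was also not called without DAPA replicate 1 (1.41), without DAPA replicate 2 (1.202) or with no filter on low values.

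Ckm measured 282, 355 and 150.5 FPKM in the DAPA rats against 108, 42.2 and 210.3 in the MI rats. DAPA replicate 3 lay below MI replicate 3, so the groups overlapped. The log2 difference of Ckm was 1.31 ± 0.60 (SE), with a 95% interval from -0.11 to 2.73 (limma p = 0.0648, adjusted p = 0.558, exact permutation p = 0.2). It was 0.71 without MI replicate 2 and 1.85, then called, without MI replicate 3. It was also called without DAPA replicate 3, at 1.67.

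The other members differed less between these groups. Ckb was 197, 189 and 192 FPKM in the DAPA rats and 187, 133 and 152 in the MI rats. The groups did not overlap, yet the log2 difference was 0.31 ± 0.18 (SE, 95% interval -0.11 to 0.73, limma adjusted p = 0.588), and it turned to -0.06 with the FPKM sum. Gatm was 12.9, 13.8 and 13.4 FPKM in the DAPA rats, above the 10.9998 to 12.3 of the MI rats, with a log2 difference of 0.20 ± 0.12 (95% interval -0.08 to 0.48, limma adjusted p = 0.592) that turned to -0.01 with all recovered reads. Gamt was 37.9, 34.1 and 18.2 FPKM in the DAPA rats, of which replicate 3 lay within the range of group MI, with a log2 difference of 0.57 ± 0.31 (limma adjusted p = 0.571). Slc6a8 was 17.5, 23.0 and 19.7 FPKM in the DAPA rats, with a log2 difference of 0.27 ± 0.18 (limma adjusted p = 0.618) that turned to -0.08 with the FPKM sum. Ak4 had 45, 17 and 22 reads (2.66, 1.03 and 1.19 FPKM) and Ckmt1 26, 1 and 9 reads in the DAPA rats, each overlapping group MI. All 7 tested members had a positive difference in the deposited values, with a median of 0.31 against -0.02 over all genes tested. This direction was not particular to them, as all 13 cardiomyocyte markers were positive too, with a median of 1.31.

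In group DAPA vs. group Sham, Ckmt2 was again lower than in the Sham rats. All 3 DAPA rats, at 157 to 336 FPKM, lay below the lowest Sham rat at 385 FPKM. The log2 change of Ckmt2 was -1.13 ± 0.32 (SE), 2.19-fold lower (limma p = 0.00823, adjusted p = 0.0346, exact permutation p = 0.1), and it was called, as the only member of 7 tested, where 17.7% of the 13359 genes were. It was not called without DAPA replicate 3 (-0.84), in 1 fit of all 9 rats or with all recovered reads (-0.25), and its sign turned with the FPKM sum (0.05). Relative to the median of all genes it was -1.14 in the deposited values, -0.996 with all recovered reads and -0.94 with the FPKM sum.

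Gatm fell by 0.59 ± 0.18 (SE) on the log2 scale, 1.504-fold lower in the DAPA rats than in the Sham rats (limma, adjusted p = 0.0446), and turned to 0.25 with all recovered reads. The highest DAPA rat, at 13.8 FPKM, lay below the lowest Sham rat, at 16.6 FPKM. Ckmt2 and Gatm were the 2 of 7 members with an adjusted p under 0.05, against 28.6% of all genes tested. Ckm was 1.93-fold higher in the DAPA rats, a log2 difference of 0.95 ± 0.33 (95% interval 0.17 to 1.73, limma p = 0.0228, adjusted p = 0.0694, exact permutation p = 0.1). It did not reach the fold-change threshold, and the lowest DAPA rat (150.5 FPKM) and the highest Sham rat (150.3 FPKM) were nearly equal. Ckm was called with all recovered reads, at 1.83, and also without Sham replicate 2 (1.03), Sham replicate 3 (1.07) or DAPA replicate 3 (1.31). Gamt differed by -0.25 ± 0.28 (limma adjusted p = 0.536), and its sign turned with all recovered reads (0.61). Ckb (0.34 ± 0.24, limma adjusted p = 0.339), Slc6a8 (0.15 ± 0.16, limma adjusted p = 0.51) and Ak4 (0.42 ± 0.48, limma adjusted p = 0.547) did not pass the test. The comparisons of DAPA with MI and of MI with Sham share the MI rats, and those against group Sham share the Sham rats, so the 3 sets of values are not independent.

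**Figure D2:**
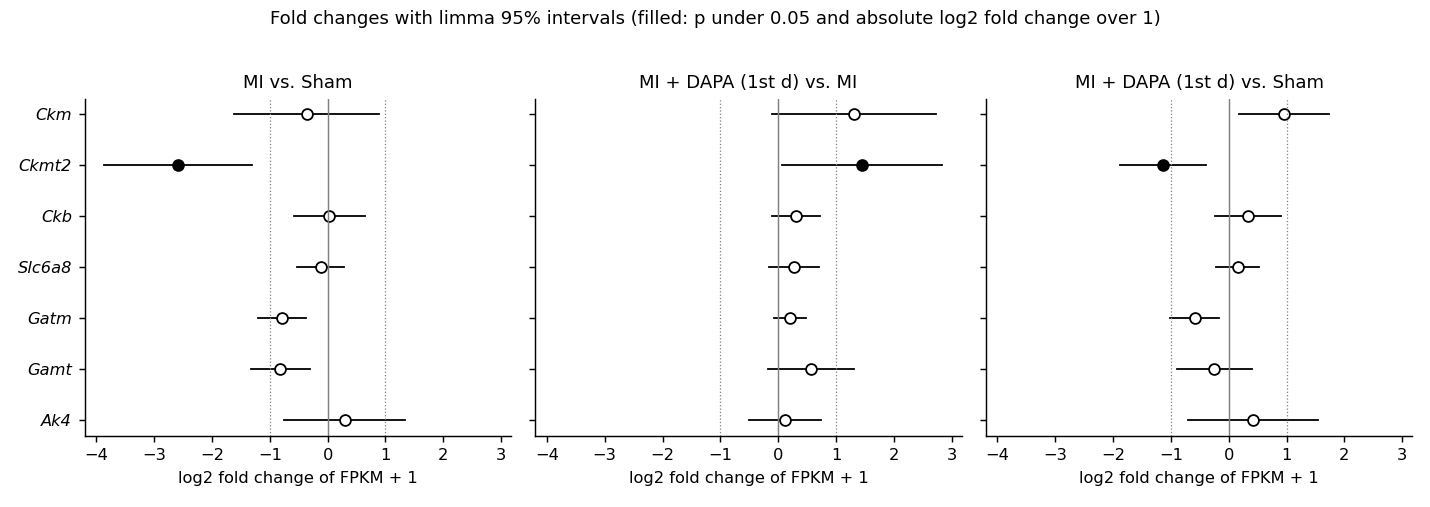
Log2 fold change of FPKM + 1 (horizontal axis) of the 7 tested members in the 3 comparisons, with limma 95% intervals as lines, dotted lines at a fold change threshold of 1 and filled points for called members. Ckmt2 was the filled point in each panel, at -2.59, 1.45 and -1.13 in the deposited values; with values rescaled to the FPKM sum the last turned to 0.05.

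The ratio of Ckb to Ckm does not depend on the scaling between libraries, since both genes are read from the same rat. It was 2.17, 0.761 and 1.04 in the Sham rats, 1.72, 3.14 and 0.724 in the MI rats and 0.7002, 0.532 and 1.28 in the DAPA rats. Every group had rats on both sides of 1, and all groups overlapped. The log2 ratio was higher by 0.40 ± 0.76 (SE) in group MI than in group Sham (two-sided exact permutation p = 0.7) and turned to -0.10 without MI replicate 2. In group DAPA it differed from group MI by -1.01 ± 0.72 (exact permutation p = 0.2) and from group Sham by -0.62 ± 0.58 (exact permutation p = 0.4). These became -0.52 without MI replicate 2 and -1.58 without MI replicate 3 for the former, and -0.19 without Sham replicate 1 and -0.97 without DAPA replicate 3 for the latter. The smallest p that 3 rats against 3 allow is 0.1, so the threshold of 0.05 could not be reached for any ratio. The 2 rats with the highest ratios, MI replicate 2 and Sham replicate 1, were also the 2 with the lowest Ckm, at 42.2 and 96.5 FPKM. Ckm is the denominator of the ratio, so these values are tied to each other.

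The ratio of Ckmt2 to Ckm, the mitochondrial against the cytosolic muscle form, separated the groups more clearly. It was 3.99, 4.25 and 4.05 in the Sham rats, 1.32, 0.789 and 0.627 in the MI rats and 0.893, 0.949 and 1.05 in the DAPA rats. The Sham rats lay close together and above every infarcted rat, treated or not. The geometric mean was 4.72 times as high in group Sham as in group MI, a log2 difference of -2.24 ± 0.32 (SE), and 4.26 times as high as in group DAPA, a log2 difference of -2.09 ± 0.07 (exact permutation p = 0.1 for each, the smallest possible, 0.35 adjusted over 7 ratio tests). Between group DAPA and group MI the log2 ratio differed by 0.15 ± 0.33 (exact permutation p = 0.7), with overlapping groups, and turned to -0.09 without MI replicate 3. Among 3 Sham, 3 MI and 3 DAPA rats, the ratio of Ckmt1 to Ckmt2 was at most 0.00608, and no fold is given for it because single rats rest on 0 to 2 reads of Ckmt1.

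**Figure D3:**
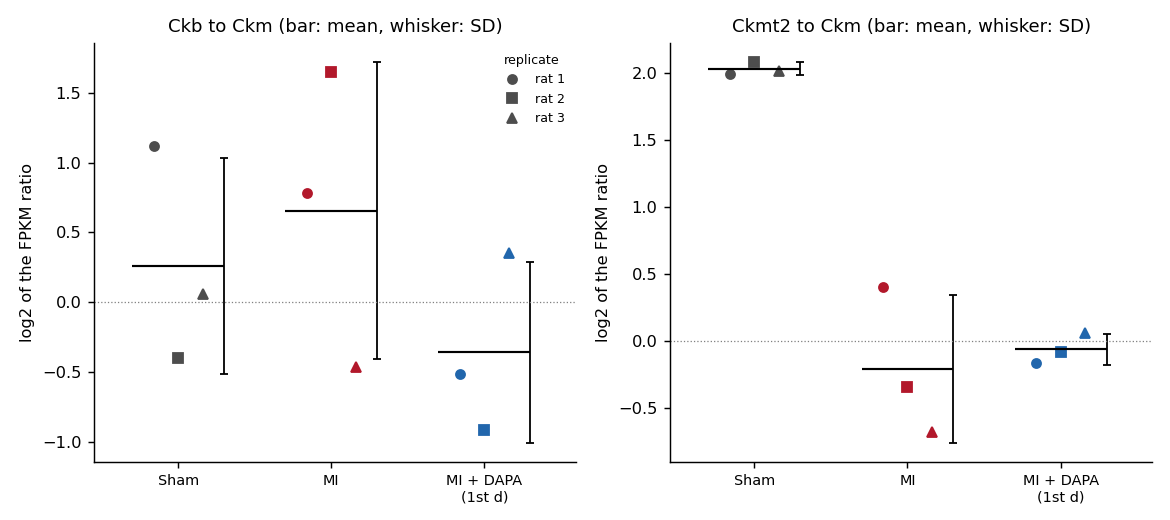
Log2 of the FPKM ratio (vertical axis) of Ckb to Ckm and of Ckmt2 to Ckm in each rat, with a bar for the mean and a whisker for the SD of 3 rats; the dotted line marks equal FPKM. The Ckb to Ckm ratio overlapped between all groups, and the Ckmt2 to Ckm ratio was near 4 on the linear scale in the Sham rats and at most 1.32 in the infarcted rats.

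Summed over Ckm, Ckmt2, Ckb and Ckmt1, creatine kinase FPKM was 820.3 ± 116 (SD, n = 3) for the Sham rats, 381 ± 152 for the MI rats and 704 ± 191 for the DAPA rats. The MI rats, at 208 to 495, lay below all rats of the other groups (exact permutation p = 0.1 against each, 0.188 adjusted over 15 tests of sums and shares). For group MI vs. group Sham the order of the sums turned with values rescaled to the FPKM sum, where group MI was higher by 152, and with all recovered reads the sums differed by -1.26. DAPA and Sham rats overlapped (exact permutation p = 0.6), with a difference of -116 in the deposited values, 290.5 with all recovered reads and 397 with the FPKM sum. In the deposited values it was -14.9 without DAPA replicate 3 and -204 without DAPA replicate 2.

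The makeup of this sum does not depend on scaling. Ckmt2 gave 55.7%, 70.7% and 66.5% of it in the Sham rats, 32.6%, 16.0% and 26.6% in the MI rats and 34.4%, 38.2% and 31.4% in the DAPA rats. Group Sham did not overlap with either infarcted group (exact permutation p = 0.1 each, adjusted p = 0.188), while MI and DAPA rats overlapped (exact permutation p = 0.2). The share of Ckm was 15.7% ± 1.47 for the Sham rats, 29.2% ± 11.8 for the MI rats and 36.3% ± 5.48 for the DAPA rats, the infarcted rats again not overlapping with group Sham (exact permutation p = 0.1 each). The share of Ckb was 20.0% ± 9.19, 45.7% ± 16.7 and 29.0% ± 8.67. Its MI rats lay at 30.8% to 63.7%, above the 12.7% to 30.3% of the Sham rats (exact permutation p = 0.1). The DAPA rats, at 21.4% to 38.4%, overlapped with both. Shares of the same sum are tied, so a lower share of Ckmt2 raises the shares of the others. Between group MI and group Sham, the FPKM of Ckb itself differed by 0.03 on the log2 scale and that of Ckm by -0.36. These 2 differences hold for the deposited values. With all recovered reads they were 1.13 for Ckb and 0.74 for Ckm, so whether these genes rose depends on the scaling. Of the differences between group MI and group Sham, that in the share of Ckm, 13.5 percentage points, was 6.80 without MI replicate 3, and that in the share of Ckb, 25.6 points, was 16.6 without MI replicate 2.

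**Figure D4:**
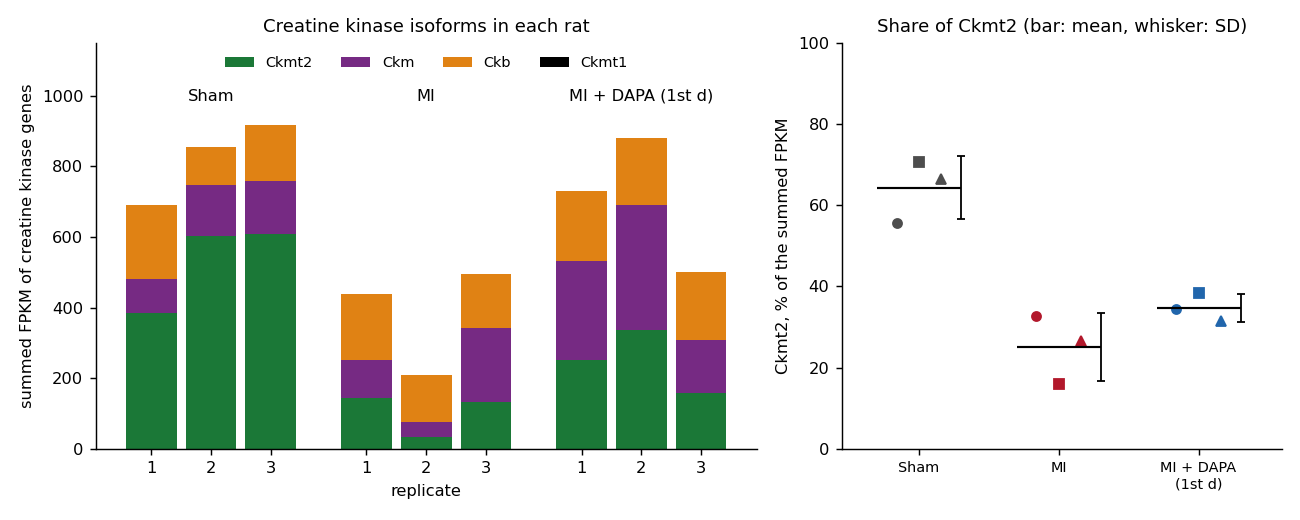
Left, summed FPKM of the creatine kinase genes (vertical axis) in each rat, stacked by gene, with Ckmt1 too low to be visible; right, the percentage given by Ckmt2 with a bar for the mean and a whisker for the SD of 3 rats. Ckmt2 gave 55.7% to 70.7% in group Sham and 16.0% to 38.2% in the infarcted rats, a share that no scaling of the libraries alters, whereas the order of the sums of group MI and group Sham turned with values rescaled to the FPKM sum.

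Because the level of cardiomyocyte RNA differed between rats, each member was also set against the mean log2(FPKM + 1) of the 13 cardiomyocyte markers in the same rat. Ckm then showed little difference between groups. Its log2 distance from the marker mean was -1.42, -1.09 and -1.31 in the Sham rats, -1.29, -1.35 and -1.28 in the MI rats and -1.15, -1.14 and -1.41 in the DAPA rats. The ranges of all 3 groups overlapped. Its group differences were -0.03 ± 0.10 (SE) in MI vs. Sham, 0.07 ± 0.09 in DAPA vs. MI and 0.04 ± 0.13 in DAPA vs. Sham (exact permutation p = 0.9, 0.4 and 0.9). The signs of the first and the last turned when single rats were left out (0.06 without Sham replicate 2 and -0.03 without Sham replicate 1), and the last was -0.68 when the median of the markers replaced their mean. MI replicate 2, the lowest rat in Ckm, was also the lowest in most markers.

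Ckmt2 kept its difference from group Sham on this scale. Its log2 distance from the marker mean was positive in all Sham rats, with a mean of 0.75, and negative in all MI rats (mean -1.51) and all DAPA rats (mean -1.29). The difference was -2.26 ± 0.34 (SE) in MI vs. Sham and -2.04 ± 0.13 in DAPA vs. Sham, without overlap (exact permutation p = 0.1 each, 0.525 adjusted over 21 tests). In DAPA vs. MI it was 0.21 ± 0.32 (exact permutation p = 0.5), and it turned to -0.01 without MI replicate 3. The log2 fold change of Ckmt2 itself was 1.45 there, and that of the markers had a median of 1.31. In DAPA vs. Sham, Gatm differed by -1.498 ± 0.32 and Gamt by -1.16 ± 0.27, without overlap (exact permutation p = 0.1 each), and both overlapped between group MI and group Sham. Ckb, Slc6a8 and Ak4 overlapped in all comparisons. The markers are themselves genes of the infarcted muscle. In MI vs. Sham 1 of the 13 was called higher and 2 lower, with a median log2 fold change of -0.22. Des was called higher, at 1.74, and Tnni3 (-2.32) and Myh6 (-2.43) were called lower. The log2 fold change of Ckmt2 was -2.59, so a fall of about this size was not particular to Ckmt2. In DAPA vs. MI 2 were called higher, with a median of 1.31, and in DAPA vs. Sham 7 were called higher and 1 lower, with a median of 1.16. The lowest marker in DAPA vs. Sham was at -1.13, the same as the -1.13 of Ckmt2. The reference thus differed between groups, and in DAPA vs. Sham the differences of Gatm and Gamt against it were larger than their own log2 changes of -0.59 and -0.25.

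**Figure D5:**
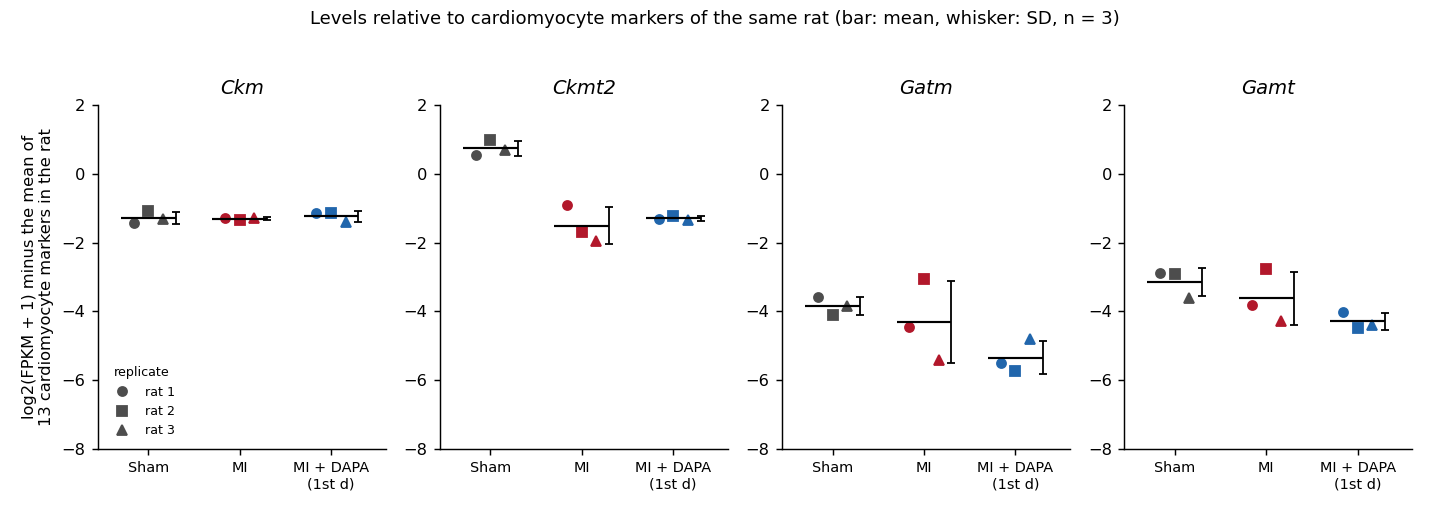
Log2(FPKM + 1) of Ckm, Ckmt2, Gatm and Gamt minus the mean of 13 cardiomyocyte markers of the same rat (vertical axis), with a bar for the mean and a whisker for the SD of 3 rats. Ckm lay between -1.42 and -1.09 in all 9 rats. Ckmt2 lay above the marker mean in group Sham and below the marker mean in group MI and group DAPA. Against the median of the markers the small DAPA vs. Sham difference of Ckm turned to -0.68.

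The genes most like each of the abundant members were sought over the 9 rats among 5733 genes with a mean of at least 10 FPKM, by Pearson's r of log2(FPKM + 1), as a description with no test since the rats share their groups. Those most like Ckm were Spink8, Cisd1, Atp5f1b, Pln and Casq2 (r = 0.98 to 0.99). Pln and Casq2, which encode the sarcoplasmic reticulum regulator phospholamban and the calcium store protein calsequestrin, belong to the cardiomyocyte marker list itself. Cisd1 encodes a protein of the outer mitochondrial membrane and Atp5f1b a subunit of ATP synthase. Cisd1 measured 96.3 ± 12.6, 90.6 ± 44.3 and 167 ± 50.9 FPKM (SD, n = 3) in group Sham, MI and DAPA, the order seen for Ckm.

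Those most like Ckmt2 were Atp5me, Ndufa5, Rbpms2, Ndufb3 and Abcb6 (r = 0.98). Of these, Atp5me encodes a subunit of ATP synthase, and Ndufa5 and Ndufb3 encode subunits of respiratory complex I. Atp5me measured 689 ± 159, 173 ± 85.1 and 364 ± 125 FPKM in group Sham, MI and DAPA, and Ndufa5 707 ± 116, 179 ± 75.8 and 386 ± 104. For Ckb the likeness was weaker (Cdk16, Stk38l, Clic2, RGD1562987 and Btbd1, r = 0.89 to 0.92). Clic2, the highest of them in level, measured 95.8 ± 30.1, 109 ± 21.1 and 138 ± 5.82 FPKM.

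The wider phosphotransfer and adenine nucleotide list held 36 genes: other adenylate kinases, nucleoside diphosphate kinases, the ADP/ATP carriers, the outer membrane channels, AMP deaminases, subunits of the AMP-activated kinase AMPK and enzymes of adenosine. Of these, 27 were tested in group MI vs. group Sham, with 1 called higher and 2 called lower, where the rule called 22.4% of all genes, and a median log2 fold change of -0.21 against -0.01 over all genes tested. Of the 2 called lower, Prkag3 passed the filter through the Sham rats alone. In group DAPA vs. group MI, 1 of 26 was called, higher, against 2.06% of all genes, with a median of 0.17 against -0.02. In group DAPA vs. group Sham, 3 of 27 were called higher and 1 lower, against 17.7% of all genes, with a median of -0.07 against 0.01. With all recovered reads, 12 of 27 were called in each comparison with group Sham, where the rule called 6388 of 13485 genes in MI vs. Sham and 4853 of 13359 in DAPA vs. Sham.

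Among the ADP/ATP carriers, which exchange the nucleotides across the inner mitochondrial membrane, Slc25a4 is the heart and muscle form. It measured 812, 937 and 1184 FPKM in the Sham rats, 588, 282 and 745 in the MI rats and 1349, 1734 and 732 in the DAPA rats. The MI rats lay below the Sham rats, and DAPA replicate 3 lay within the range of group MI. Slc25a4 was called in DAPA vs. MI (log2 1.26 ± 0.47, limma p = 0.0321, adjusted p = 0.558, exact permutation p = 0.2). No gene of the list was called in this comparison without MI replicate 1, MI replicate 2, DAPA replicate 1 or DAPA replicate 2, nor with the FPKM sum. Slc25a5, the more widely expressed carrier, measured 67.9, 64.0 and 62.3 FPKM in the Sham rats, 111, 103 and 136 in the MI rats and 152, 145 and 103 in the DAPA rats. All infarcted rats lay above all Sham rats, and Slc25a5 was called in DAPA vs. Sham (1.01 ± 0.19, limma adjusted p = 0.00837). As a description, the ratio of Slc25a5 to Slc25a4 was 0.0526 to 0.0836 in the Sham rats, 0.183 to 0.365 in the MI rats and 0.0834 to 0.141 in the DAPA rats. Slc25a5 and Ak4 may share reads with near-identical copies, and how such reads were assigned is not given in the sources used here.

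Vdac1, the main channel of the outer mitochondrial membrane, measured 39.0, 47.7 and 44.9 FPKM in the Sham rats, 74.8, 47.2 and 117 in the MI rats and 127, 126 and 87.6 in the DAPA rats. It was called in DAPA vs. Sham (1.34 ± 0.19, limma adjusted p = 0.00391), where the groups did not overlap. Nt5e, the ecto-5′-nucleotidase that forms adenosine from AMP outside the cell, rose in both comparisons with group Sham. It measured 6.64, 9.46 and 6.98 FPKM in the Sham rats, 29.0, 20.8 and 24.1 in the MI rats (log2 1.56 ± 0.19, limma adjusted p = 0.0018) and 19.9, 21.0 and 25.3 in the DAPA rats (1.42 ± 0.19, limma adjusted p = 0.003). Nt5e is also carried by fibroblasts, whose summed markers were higher in the infarcted rats, and their part in this difference was not tested.

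Of the AMPK subunits, Prkag3, a regulatory gamma subunit best known from skeletal muscle, measured 4.32, 6.07 and 4.06 FPKM in the Sham rats, 0.113, 0.165 and 0.818 in the MI rats and 1.13, 1.39 and 0.343 in the DAPA rats. All MI rats were below 1 FPKM, with 6, 8 and 43 reads, so Prkag3 passed the filter in MI vs. Sham through the Sham rats alone and was bound to be lower in group MI. It met the call rule in MI vs. Sham (-2.11 ± 0.27, limma adjusted p = 0.00196), but as the filter fixed the direction this is no evidence of a fall. In DAPA vs. Sham it was called lower (-1.60 ± 0.28, limma adjusted p = 0.00717). The Sham rats alone were enough to pass the filter there too. The groups did not overlap in either comparison. Prkab1, a regulatory beta subunit, measured 29.5, 48.2 and 35.6 FPKM in the Sham rats, 15.4, 19.1 and 18.2 in the MI rats and 17.5, 23.4 and 18.0 in the DAPA rats. It was called lower in group MI (-1.04 ± 0.20, limma adjusted p = 0.00783). In DAPA vs. Sham its log2 change was -0.89 ± 0.22 (limma adjusted p = 0.0208), short of the fold-change threshold.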

How the data were processed

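Poly-A selected RNA from 3 rats per group was sequenced as paired reads. The values deposited by the authors are FPKM, normalized by gene length and library size, with a single column for each sample, although each title names a pair of parts; the submitters' processing notes name HISAT2 2.0.5, StringTie 1.3.3b, featureCounts 1.5.0-p3 and DESeq2, and the genome build of the files is not given in the sources used here. The number of columns not used was 0.

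Groups were taken from the labels. The members and lists were chosen with earlier results of these data known. FPKM was fitted as log2(FPKM + 1) with limma 3.58.1 in R 4.3.3 (trend in the prior variance, fits of 6 rats, without covariates), after a filter of at least 1 FPKM in at least 3 of the 6 rats. Genes were called, as in the study, at an unadjusted p under 0.05 together with a log2 fold change beyond 1 in either direction, with Benjamini-Hochberg adjustment over all genes beside it. Promoter windows are RefSeq, GRCr8. The log2(FPKM + 1) scale understates the change of low genes. The labels do not tie rats of different groups together, and the p-values measure the spread between these rats. Ratios, shares and values relative to markers went through exact permutation tests, two-sided, in Python 3.11.15 with scipy 1.17.1. The ratio of Ak4 to Ak1 was not computed.

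Reads were recovered from the FPKM steps for all 18896 genes that had values above 0 in 4 or more rats, to within 0.02 reads, as the smallest whole numbers that give the values, so a common factor would be missed. The 12588 genes at 0 in every rat give none, and the intervals and floors (3 reads) cover counting error only. The limma script was tested on simulated data.

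Genes were named by rule: all members, every phosphotransfer gene called in at least 1 comparison (up to 12), the 3 highest markers of a list used, and the 5 genes most like Ckm, Ckmt2 and Ckb. Alternatives were another pseudocount, no filter, 1 fit of all 9 rats, a replicate block, no trend, 4 other scalings, other call rules, the marker median and leaving out each rat. The scalings and left-out rats for the summed creatine kinase and its shares were added after seeing the data.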

Additional observations from a re-analysis of the deposited data

How the results depend on the processing

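Ckmt2 in MI vs. Sham was negative under all alternatives run, and called in all but the rescaling to the FPKM sum; 3 rats a group and, for Ak4 and Ckmt1, few reads limit the rest. The cause of the following changes was not tested, except that the rescaling to the FPKM sum and to all recovered reads moves all genes together, as the medians in the text show. The number of members called in MI vs. Sham, 1 as reported, was 4 with the FPKM sum, 2 with all recovered reads and 3 with no fold-change threshold. Over all 13485 genes tested the same settings called 8876, 6388 and 6605, against 3024. In DAPA vs. MI the number of members called, 1 as reported, was 0 with no filter or with the adjusted p and the fold-change threshold, and 2 in 1 fit of all 9 rats. Over all genes these settings called 261 of 22604, 0 of 13251 and 336 of 13251, against 273 of 13251. In DAPA vs. Sham the number of members called, 1 as reported, was 0 in 1 fit of all 9 rats and 4 with the FPKM sum. It was 2 with all recovered reads and 3 with no fold-change threshold. Over all 13359 genes these settings called 2352, 6755, 4853 and 5534, against 2364. Leaving out each rat gave 1 to 2, 0 to 2 and 1 to 2 members called in the 3 comparisons. The count was 0 in DAPA vs. MI without MI replicate 2, DAPA replicate 1 or DAPA replicate 2. Over all genes the left-out fits called 2545 to 3043, 111 to 561 and 2047 to 2478.

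The phosphotransfer list had 18 called in MI vs. Sham with the FPKM sum, 12 with all recovered reads and 12 with no fold-change threshold, against 3 as reported; over all 13485 genes the same settings called 8876, 6388 and 6605, against 3024. In DAPA vs. MI it had 0 with the FPKM sum and 0 with the adjusted p, against 1, and in DAPA vs. Sham 14, 12 and, with no fold-change threshold, 9, against 4 (6755, 4853 and 5534 of all 13359 genes, against 2364). Leaving out each rat gave 1 to 5, 0 to 1 and 4 to 5.

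Signs turned as follows. With the FPKM sum, the log2 fold change in MI vs. Sham was 1.18 for Ckm, 1.35 for Slc6a8, 0.68 for Gatm and 0.68 for Gamt, in DAPA vs. MI -0.060 for Ckb, -0.079 for Slc6a8, -0.14 for Gatm and -0.091 for Ak4, and in DAPA vs. Sham 0.053 for Ckmt2, 0.53 for Gatm and 0.90 for Gamt. With all recovered reads it was 0.74 for Ckm, 0.93 for Slc6a8, 0.26 for Gatm and 0.25 for Gamt in MI vs. Sham, -0.0090 for Gatm and -0.0088 for Ak4 in DAPA vs. MI, and 0.25 for Gatm and 0.61 for Gamt in DAPA vs. Sham. With the mitochondrial genome left out, Ckb was -0.011 in MI vs. Sham. The summed creatine kinase difference, under scalings added after seeing the data, turned to 152 in MI vs. Sham and 397 in DAPA vs. Sham with the FPKM sum, and to 290.5 in DAPA vs. Sham with all recovered reads, where MI vs. Sham was -1.26. Against the median of the markers, Ckm was -0.68 in DAPA vs. Sham, and Ckb was -0.65, Slc6a8 -0.80 and Ak4 -0.38 in MI vs. Sham.

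With single rats left out, the log2 fold change in MI vs. Sham ranged from -0.90 to 0.24 for Ckm, -0.22 to 0.26 for Ckb, -0.20 to 0.037 for Slc6a8 and -0.16 to 0.76 for Ak4, that of Ak4 in DAPA vs. MI from -0.14 to 0.28, and in DAPA vs. Sham from -0.44 to 0.067 for Gamt and -0.042 to 0.88 for Ak4. The log2 ratio of Ckb to Ckm in MI vs. Sham ranged from -0.10 to 0.96 and that of Ckmt2 to Ckm in DAPA vs. MI from -0.089 to 0.45. Relative to the markers, MI vs. Sham ranged from -0.10 to 0.063 for Ckm, -0.11 to 0.90 for Ckb, -0.22 to 0.66 for Slc6a8 and -1.09 to 0.10 for Gatm, DAPA vs. MI from -0.0064 to 0.52 for Ckmt2, and DAPA vs. Sham from -0.033 to 0.13 for Ckm and -0.94 to 0.10 for Ak4.

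The labels do not say that rats of the same number belong together. The mean correlation of deviations between rats of the same number was -0.18 in DAPA vs. MI, 0.10 in DAPA vs. Sham and 0.02 in MI vs. Sham. Between rats of different numbers it was 0.09, -0.05 and -0.01. Deviations were taken from group means, so these values are tied to each other and cannot settle whether rats were paired. With the replicate number as a block, 0 members and 0 genes of the phosphotransfer list were called in DAPA vs. MI (Ckmt2 among those lost), and the counts called in the other comparisons were 1 and 3 (MI vs. Sham) and 1 and 4 (DAPA vs. Sham). Over all genes the block gave 217 of 13251, 3044 of 13485 and 2404 of 13359, in the same order.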

Other observations

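The ratio of Ckm to Mb, which encodes the oxygen store myoglobin of heart muscle, was chosen for display after the values were seen. It was 0.0498, 0.0680 and 0.0594 in the Sham rats, 0.0477, 0.0612 and 0.0508 in the MI rats and 0.0488, 0.0481 and 0.0436 in the DAPA rats, while Ckm alone ranged from 42.2 to 355 FPKM. The ratio of Ckmt2 to Ckb was 1.84, 5.59 and 3.89 in the Sham rats, 0.767, 0.251 and 0.866 in the MI rats and 1.27, 1.78 and 0.818 in the DAPA rats. The 3 Sham rats lay above all infarcted rats, and DAPA replicate 3 lay within the range of the MI rats.

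Of the lists of other cell types, the 5 smooth muscle markers summed to 393 to 1420 FPKM in the Sham rats, 506 to 693 in the MI rats and 473 to 712 in the DAPA rats. The 4 endothelial markers summed to 209 to 358, 111 to 138 and 151 to 188 FPKM, with no overlap between the groups. The 6 markers of glia and neurons, cells that also express Ckb, summed to 26.2 to 91.6, 36.5 to 55.6 and 13.6 to 57.2 FPKM. The 5 lymphocyte markers summed to 1.33 to 5.42, 3.74 to 92.4 and 2.73 to 4.72 FPKM. The value of 92.4 was MI replicate 2, the other MI rats being at 3.74 and 17.9. That rat also had the highest sums of fibroblast (7367) and macrophage (1107) markers. The 4 adipocyte markers summed to at most 0.232, 1.01 and 9.37 FPKM in group Sham, MI and DAPA.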
